A study of Mus musculus with 6 samples.

Results

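The HIF-1 pathway and its hypoxia response were examined through 10 genes in RNA from cultured mouse calvarial preosteoblasts, the precursors of bone-forming osteoblasts. The 10 genes, Hif1a, Egln1, Egln3, Bnip3, Ankrd37, Ndrg1, Ddit4, Adm, Vegfa and Car9, were matched by symbol, and all 10 were found among the 17001 rows of the deposited table. They were chosen from well-known hypoxia genes outside glycolysis, with their values in these same libraries in view. The difference between the groups and the spread among the libraries labelled cKO are therefore given for them as a description, without a test.

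The cells were taken from skull caps of mice at 3 days of age and were grown in α-MEM with 10% serum. The 3 control libraries were from Nell2 fx/fx mice, in which both copies of Nell2 are floxed and no Cre is present, and the 3 libraries labelled cKO were from Col1-cre;Nell2 fx/fx mice, in which a fragment of the mouse Col1a1 promoter drives Cre in the osteoblast lineage. Both groups carry the floxed alleles, a control with Cre and unfloxed Nell2 was not analysed here, and the sources used here do not say how many pups gave each culture. P-values thus measure the spread between these libraries, which may be technical in part. In each group, Y-linked genes, given below, were expressed in some libraries and nearly absent in others. The libraries of a group thus did not all come from the same animals. Values are FPKM, fragment counts scaled to transcript length and library size, and summed to between 573307 and 606428 in a library. The number of reads behind a value is unknown, so no counting error is given.

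Nell2, the targeted gene, lies at chr15:95075230-95528559 on the minus strand (GRCm38, GENCODE M21). Control replicates 1, 2 and 3 gave 3.17, 2.59 and 1.88 FPKM for it. The corresponding values in the libraries labelled cKO were 5.64, 1.61 and 5.74 FPKM. Replicates 1 and 3 labelled cKO were thus above every control, and replicate 2 was below every control. A gene-level value does not separate the floxed part of Nell2 from the rest, and directions below follow the labels. Markers of the labelled cell type were present at unequal levels. Col1a1, the most abundant gene of the osteoblast lineage list, was between 8053 and 8578 FPKM, and Runx2, the transcription factor that commits cells to this lineage, was between 10.98 and 14.71 FPKM in the 6 libraries. Bglap, the osteocalcin gene of mature osteoblasts, was low, between 1.2 and 8.61 FPKM. Like Sp7, Alpl and Ibsp of the same list of 10, it was below every control in each library labelled cKO, against 11.8% of genes tested. Postn of that list was above every control in each library labelled cKO, against 6.51% of genes tested.

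HIF-1 is a pair of proteins, an oxygen-regulated alpha subunit and the constant subunit ARNT. In the presence of oxygen, prolyl hydroxylases of the EGLN family mark the alpha subunit, and the VHL ubiquitin ligase complex then sends it for degradation. When oxygen is low, the alpha subunit accumulates and the pair binds a short element near target genes for blood vessel growth, mitochondrial turnover, pH control and glycolysis. In bone, HIF in cells of the osteoblast lineage is known for coupling vessel growth to bone formation through VEGF.

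The core of this element, ACGTG or GCGTG, was looked for on both strands in the 250 bases before the start of each gene (RefSeq, GRCm38.p6). Matches may overlap. Of the 10 genes, 9 had an entry, with 10 windows since Vegfa has a pair of starts. A match was found in 9 of the 10 windows, and in 38.6% of the 32851 windows of the same length in the RefSeq table. The mean number of matches was 2.2 in a window of these genes and 0.663 in a window of the whole table, and base composition was not taken into account. The window without a match was the one of Vegfa whose start lies 8 bases from the nearest GENCODE start. The matched window of Vegfa lies inside the gene, 282 bases from the nearest GENCODE start. The windows of the 3 matched genes with the largest difference between the groups on the log2(FPKM + 1) scale (Car9, Egln3 and Bnip3, an order that Ankrd37 enters with a smaller pseudocount) and of Adm, the gene that was lower in the libraries labelled cKO, are shown for comparison, 5′ to 3′ along the gene, with each match in capitals.

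Car9, chr4:43506776-43507025, plus strand: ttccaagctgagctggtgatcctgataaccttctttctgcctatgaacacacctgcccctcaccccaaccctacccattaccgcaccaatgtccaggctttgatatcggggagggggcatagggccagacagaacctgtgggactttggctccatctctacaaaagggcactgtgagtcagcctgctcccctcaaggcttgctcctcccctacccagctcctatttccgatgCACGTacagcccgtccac

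Egln3, chr12:54203875-54204124, minus strand: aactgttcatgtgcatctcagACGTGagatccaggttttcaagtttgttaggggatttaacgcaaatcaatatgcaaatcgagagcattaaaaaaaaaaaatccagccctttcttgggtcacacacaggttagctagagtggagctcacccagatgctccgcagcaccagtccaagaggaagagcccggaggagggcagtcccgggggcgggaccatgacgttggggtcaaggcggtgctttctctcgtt

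Bnip3, chr7:138909507-138909756, minus strand: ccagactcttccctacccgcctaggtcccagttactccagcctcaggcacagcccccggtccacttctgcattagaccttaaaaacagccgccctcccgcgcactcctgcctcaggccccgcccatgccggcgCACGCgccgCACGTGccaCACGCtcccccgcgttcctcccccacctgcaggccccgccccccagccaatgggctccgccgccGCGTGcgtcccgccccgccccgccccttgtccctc

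Adm, chr7:110627407-110627656, plus strand: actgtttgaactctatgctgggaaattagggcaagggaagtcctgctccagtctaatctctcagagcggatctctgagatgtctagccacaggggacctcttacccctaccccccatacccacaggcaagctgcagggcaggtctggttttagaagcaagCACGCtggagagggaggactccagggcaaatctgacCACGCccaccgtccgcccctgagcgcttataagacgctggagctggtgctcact

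Car9 had a single match, which began 18 bases before the start, and Egln3 a single match 229 bases before it. Bnip3 had 5, the farthest beginning 117 bases and the nearest 35 bases before the start. Adm had matches at 90 and 54 bases. A match of these letters is a description of the window and does not show that a factor binds there.

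The main pattern was shared by 8 of the 10 genes. Egln1, Egln3, Bnip3, Ankrd37, Ndrg1, Ddit4, Vegfa and Car9 each had their highest values in replicates 2 and 3 labelled cKO, while replicate 1 lay much nearer to the controls. Relative to the control mean, FPKM in these 8 genes was 1.09 to 1.45 times as high in replicate 1, 1.5 to 4.99 times in replicate 2 and 1.44 to 4.92 times in replicate 3. Replicates 2 and 3 stood above the other 4 libraries in these 8 genes, as they did in 15.0% of the 11590 genes tested. Every library labelled cKO exceeded every control in the same 8 genes, against 6.51% of genes tested, and the reverse order held for 0 of the 10 genes and 11.8% of genes tested. Since the genes were chosen on this contrast, nothing is read from these counts. Across the table, limma's moderated test on log2(FPKM + 1) called 0% of the 11590 genes at an adjusted p-value under 0.05.

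**Figure D1:**
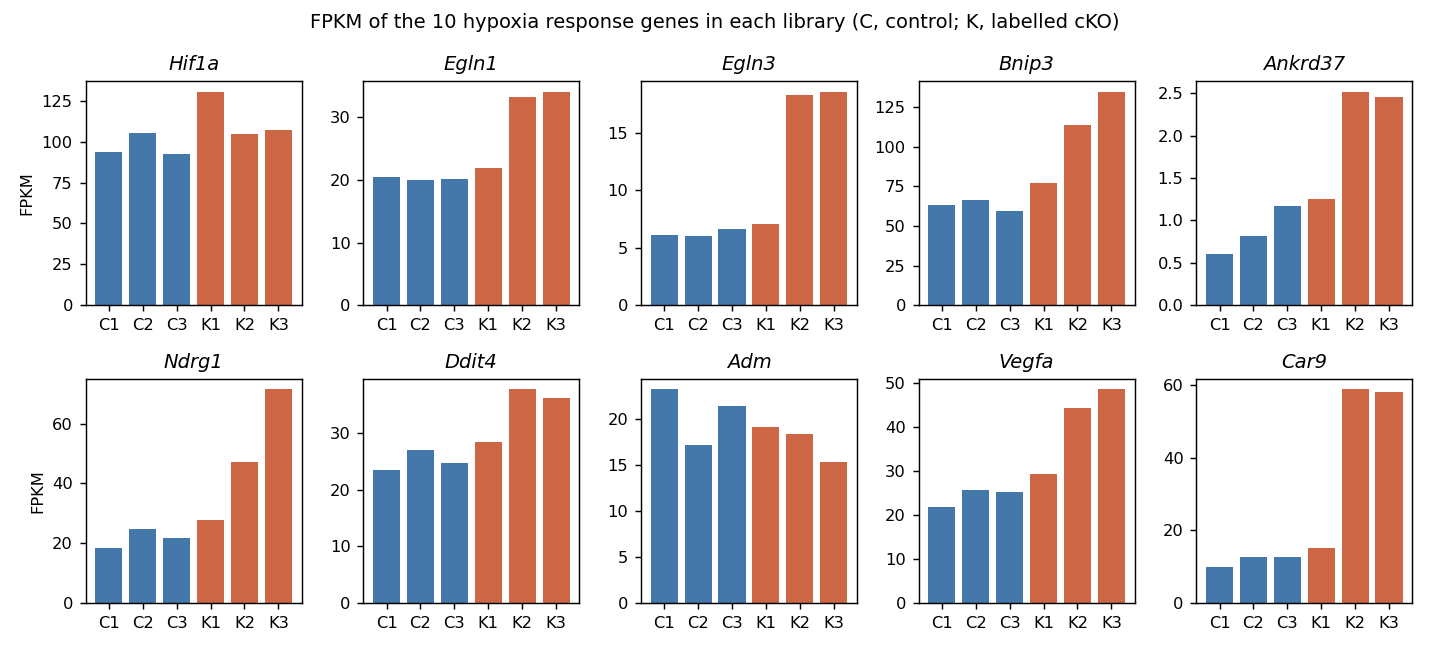
FPKM (vertical axes, each from 0) of the 10 hypoxia response genes in control replicates 1 to 3 (C1 to C3) and replicates 1 to 3 labelled cKO (K1 to K3), 1 bar per library. In 8 genes K2 and K3 are the tallest bars, whereas Hif1a is highest in K1 and Adm in C1.

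Hif1a, the oxygen-regulated subunit itself (chr12:73901375-73947530, plus strand), did not share the pattern. Its FPKM was 93.49, 105.2 and 92.55 in the controls and 130.58, 104.86 and 107.18 in the libraries labelled cKO. It was highest in replicate 1, the library in which the 8 genes were near control level, and the groups overlapped at control replicate 2. The fitted difference was 0.23 (SE 0.10), or 0.13 without replicate 1 labelled cKO, on the log2(FPKM + 1) scale, a scale on which all differences below are given and which understates those of low genes. In every library Hif1a was the most abundant or second most abundant of the 10 genes per unit length, with Bnip3 the other.

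Egln1 and Egln3 encode the prolyl hydroxylases that mark HIF alpha subunits and are themselves HIF targets. Egln1 (chr8:124908587-124949324, minus strand) was at 20.46, 19.98 and 20.19 FPKM in the controls and at 21.96, 33.27 and 34.12 in the libraries labelled cKO. The controls were nearly identical, with a mean of 20.2 ± 0.241 (SD, n = 3), and the difference was 0.51 (SE 0.16). Egln3 (chr12:54178981-54203860, minus strand) was at 6.13, 6.01 and 6.64 FPKM in the controls and at 7.07, 18.33 and 18.59 in the libraries labelled cKO. The difference was 1.0 (SE 0.33). Replicates 2 and 3 were thus 2.93 and 2.97 times the control mean, and replicate 1 was 1.13 times.

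Bnip3 (chr7:138890836-138909519, minus strand) encodes a mitochondrial receptor for mitophagy. It was at 63.49, 66.39 and 59.74 FPKM in the controls and at 76.93, 114.05 and 134.81 in the libraries labelled cKO, a difference of 0.74 (SE 0.19). Here replicate 1 was 1.22 times the control mean and clear of the control range, yet below replicates 2 and 3. Ndrg1 (chr15:66929318-66969640, minus strand) is a stress-responsive gene induced by hypoxia. It was at 18.22, 24.85 and 21.57 FPKM in the controls and at 27.69, 47.21 and 71.44 in the libraries labelled cKO, a difference of 1.05 (SE 0.31). Ndrg1 was the gene in which replicates 2 and 3 were furthest apart, at 2.19 and 3.32 times the control mean. Ddit4 (chr10:59949669-59951834, minus strand) encodes an inhibitor of mTORC1 that is induced by hypoxia and by other stresses. It was at 23.62, 27.07 and 24.72 FPKM in the controls and at 28.42, 37.8 and 36.32 in the libraries labelled cKO. Of the 8 genes it had the smallest difference, 0.42 (SE 0.12).

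Ankrd37 (chr8:45996902-46005707, minus strand), a HIF-1 target encoding an ankyrin repeat protein, was by far the lowest of the 10. It was listed at 0.6, 0.82 and 1.17 FPKM in the controls and at 1.25, 2.52 and 2.46 in the libraries labelled cKO. Genes were kept if 3 or more libraries reached 1 FPKM, and Ankrd37 did so through the libraries labelled cKO and control replicate 3. Its difference was 0.71 (SE 0.20) and became 1.16 with a pseudocount of 0.1 in place of 1. Replicate 1 was only just above control replicate 3.

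Vegfa (chr17:46016993-46032369, minus strand), the main secreted growth factor for blood vessels, was at 21.82, 25.68 and 25.16 FPKM in the controls and at 29.28, 44.46 and 48.61 in the libraries labelled cKO. The difference was 0.70 (SE 0.18), and replicate 1 was 1.21 times the control mean. Adm (chr7:110627661-110629820, plus strand) encodes adrenomedullin, a vasodilator peptide and a hypoxia target in many cell types. It was at 23.18, 17.1 and 21.38 FPKM in the controls and at 19.15, 18.37 and 15.28 in the libraries labelled cKO, a difference of -0.21 (SE 0.13). It was -0.12 without control replicate 1 or without replicate 3 labelled cKO, and -0.33 without control replicate 2. The groups overlapped, and replicate 3, among the highest for the 8 genes, had the lowest value of Adm.

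Car9 (chr4:43506966-43513729, plus strand) encodes a membrane carbonic anhydrase that helps cells to export acid. It had the largest difference of the 10 genes, 1.59 (SE 0.49). Its FPKM was 9.9, 12.8 and 12.74 in the controls and 15.05, 58.91 and 58.16 in the libraries labelled cKO. The ratio to the control mean was 1.27 in replicate 1, and replicates 2 and 3 were 4.99 and 4.92 times that mean. The mean of the libraries labelled cKO, 44.0 ± 25.1 (SD, n = 3), was thus a level that none of the 3 libraries had.

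**Figure D2:**
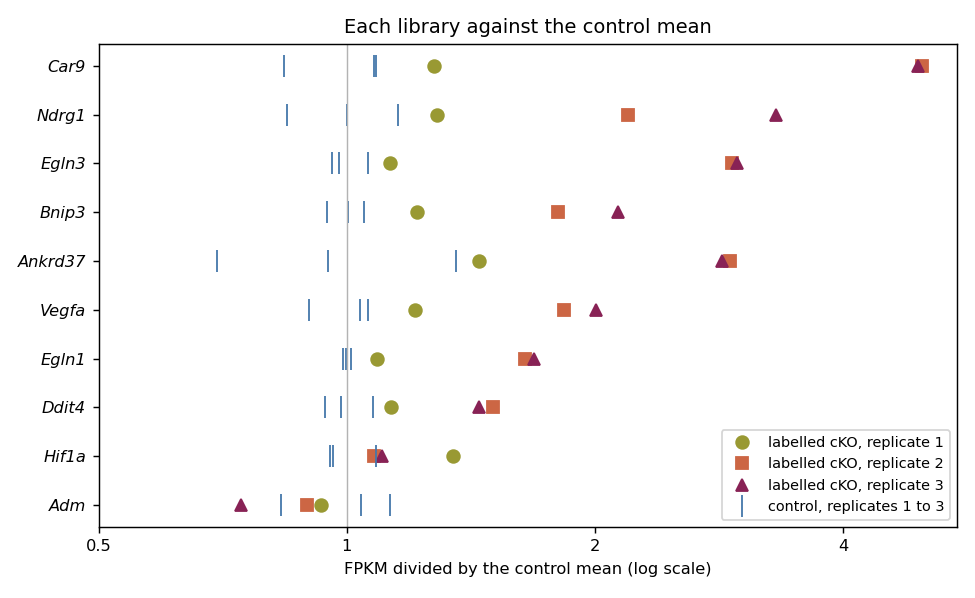
FPKM of each library divided by the control mean of the gene (horizontal axis, log scale) for the 10 genes, with ticks for the 3 controls and 1 symbol for each library labelled cKO. In 8 genes replicate 1 sits at 1.09 to 1.45, near the control ticks, and replicates 2 and 3 sit farther right, up to 4.99 for Car9.

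The SD of log2(FPKM + 1) was larger among the libraries labelled cKO than among the controls in 9 of the 10 genes, as it was in 57.9% of genes tested, with Adm the exception. For Car9 the SD was 1.09 in the libraries labelled cKO and 0.19 in the controls, and for Egln3 it was 0.73 and 0.07. For Egln1 it was 0.34 and 0.02.

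Other targets of HIF that were not among the 10 genes are the collagen hydroxylases, mitochondrial, iron and signaling genes of a list of 29, of which 28 had a row and 27 passed the filter. Their differences were mostly small and in 1 direction. In the libraries labelled cKO 26 of the 27 were higher, against 44.2% of all genes tested, and the median difference was 0.25, against -0.02 over all genes tested. After adjustment over all genes, 0 of the 27 passed in limma's moderated test, with adjusted p-values of at least 0.312. At an unadjusted p-value under 0.05, 15 were higher and 0 were lower, against 5.37% and 7.76% of genes tested. Replicates 2 and 3 labelled cKO were above the other 4 libraries in 20 of the 27, against 15.0% of genes tested. This list and those below were also drawn up with earlier results of these data known. Their counts are therefore a description and no independent test.

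The largest difference in this list was that of Stc2, encoding the secreted glycoprotein stanniocalcin 2, with 1.12 (SE 0.37, adjusted p = 0.315 from limma). Its FPKM was 3.98, 3.73 and 5.1 in the controls and 4.99, 14.94 and 14.3 in the libraries labelled cKO, so replicate 1 was within the control range. Ero1l, listed by its older symbol and encoding an oxidase that forms disulfide bonds in the endoplasmic reticulum, was at 14.28, 13.4 and 14.46 FPKM in the controls and at 15.84, 37.57 and 35.55 in the libraries labelled cKO (difference 0.93, SE 0.30, adjusted p = 0.312). The lipoprotein receptor gene Vldlr was at 4, 3.37 and 5.24 against 4.86, 10.68 and 10.69 FPKM (difference 0.85, SE 0.28, adjusted p = 0.317). As with Stc2, replicate 1 of Vldlr lay among the controls. The mitochondrial gene Fam162a was at 209.66, 181.7 and 204.85 FPKM in the controls and at 199.67, 356.05 and 389.89 in the libraries labelled cKO (difference 0.61, SE 0.24, adjusted p = 0.365). Plod2, a lysyl hydroxylase of collagen, was at 30.76, 40.46 and 35.32 against 40.21, 55.42 and 56.2 FPKM (difference 0.49, SE 0.15, adjusted p = 0.312). The 1 gene of the list that was lower was Tfrc, the transferrin receptor, named after its values were seen, at -0.23 (SE 0.11, adjusted p = 0.406). Epo was the listed gene without a row, so it was not analysed here.

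**Figure D3:**
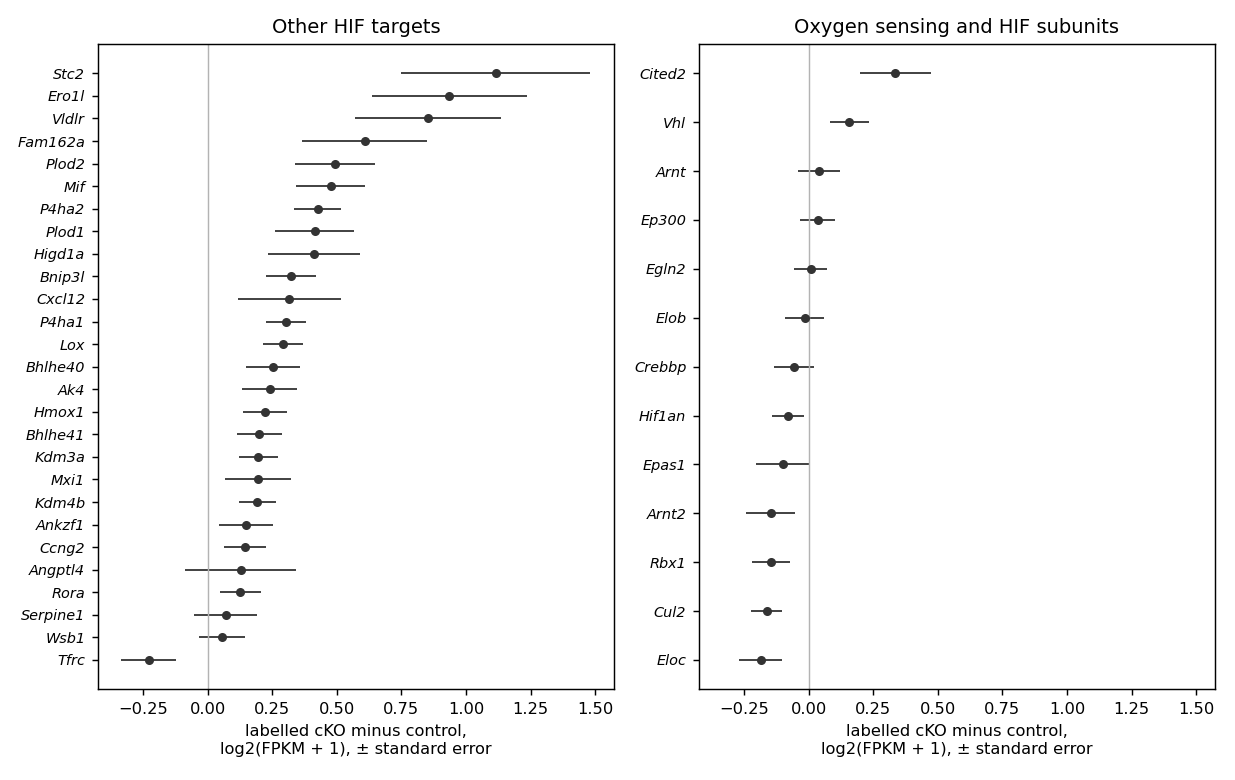
Fitted difference between the libraries labelled cKO and the controls on the log2(FPKM + 1) scale (horizontal axes; points, with bars of 1 standard error) for the 27 tested genes of the list of other HIF targets and the 13 tested genes of oxygen sensing and HIF subunits. Of the targets 26 lie right of 0, from 0.06 for Wsb1 to 1.12 for Stc2, and the oxygen sensing genes lie on both sides, between -0.19 for Eloc and 0.34 for Cited2.

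Other genes of the machinery that sets HIF activity, beside Hif1a, Egln1 and Egln3, had differences in both directions. Of 14 such genes for HIF subunits, hydroxylases, the VHL complex and coactivators, 13 passed the filter, and relative to the controls 5 of them were higher and 8 lower, against 44.2% higher over all genes tested. Replicates 2 and 3 labelled cKO were above the other 4 libraries in 2 of the 13, Vhl and Cited2, against 15.0% of genes tested. The median difference of the list was -0.06, and ran from -0.09 to -0.01 with a library left out. After adjustment 0 of the 13 passed, with adjusted p-values of at least 0.342. At an unadjusted p-value under 0.05, Cited2 was higher and Cul2 was lower, 1 of 13 in each direction, which is near the 5.37% and 7.76% of genes tested. Cited2, a HIF target whose product competes with HIF for its coactivators, was at 17.66, 16.82 and 15.61 FPKM in the controls and at 17.29, 25.71 and 21.71 in the libraries labelled cKO (difference 0.34, SE 0.14, adjusted p = 0.372 from limma). The next largest differences in size were those of VHL, which recognises the hydroxylated alpha subunit, and of other subunits of its ligase complex. Vhl was at 0.16 (SE 0.08, adjusted p = 0.422), Eloc at -0.19 (SE 0.08, adjusted p = 0.399), Cul2 at -0.16 (SE 0.06, adjusted p = 0.342) and Rbx1 at -0.15 (SE 0.07, adjusted p = 0.429). Epas1, the alpha subunit of HIF-2, was at 1.75 to 2.63 FPKM in the controls and 1.88 to 2.07 in the libraries labelled cKO, so its transcript was far below that of Hif1a per unit length in every library.

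Genes of the same families as the 10 or of like function, and receptors for their products, were mixed. Of 25 such genes 24 had a row and 17 passed the filter. Relative to the controls 12 of them were higher and 5 lower, against 44.2% higher over all genes tested. Their median difference was 0.16, and ran from 0.09 to 0.29 with a library left out. After adjustment 0 of the 17 passed, with adjusted p-values of at least 0.312, and 5 were higher and 2 lower at an unadjusted p-value under 0.05, against 5.37% and 7.76% of genes tested. Car3, a cytosolic carbonic anhydrase, had the largest difference but a wide spread in both groups, at 0.37, 1.75 and 5.12 FPKM in the controls and 2.42, 9.9 and 8.71 in the libraries labelled cKO (difference 1.32, SE 0.63, adjusted p = 0.416). Sesn2, like Ddit4 an inhibitor of mTORC1, was at 13.68, 13.29 and 13.88 against 13.9, 24.34 and 23.28 FPKM (difference 0.52, SE 0.20, adjusted p = 0.347). Ndrg2, a relative of Ndrg1, was at 11.37, 9.55 and 11 against 10.85, 18.61 and 17.62 FPKM (difference 0.49, SE 0.19, adjusted p = 0.362). Replicate 1 was near or within the control range in all 3 of these genes.

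Every library labelled cKO was above every control in 4 of the 17, Ddit4l, Calcrl, Sesn2 and Vegfc, and below every control in 2, Nrp2 and Ndrg4, against 6.51% and 11.8% of genes tested. Ddit4l, the relative of Ddit4, was at 7.73, 9.98 and 13.43 FPKM in the controls and at 14.07, 13.95 and 14.9 in the libraries labelled cKO (difference 0.46, SE 0.17, adjusted p = 0.342), with replicate 1 between replicates 2 and 3. Calcrl, the receptor that binds adrenomedullin together with a RAMP protein, was at 1.12, 1.24 and 1.49 against 1.91, 2.13 and 2.08 FPKM (difference 0.42, SE 0.08, adjusted p = 0.312), with replicate 1 the lowest of the libraries labelled cKO. The VEGF receptor genes Flt1 and Kdr, typical of endothelial cells, did not pass the filter, with at most 0.34 and 0.42 FPKM in any library.

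Leaving out each library in turn singled out 1 of them. Without the library labelled cKO replicate 1, limma called 324 genes at an adjusted p-value under 0.05, 1.35% of genes tested as higher and 1.45% as lower. Of the other HIF targets 9 of 27 were then called, all 9 higher, and these were Bnip3l, Ero1l, Higd1a, Mif, Stc2, P4ha2, Fam162a, Vldlr and Plod1. Of the oxygen sensing genes 0 of 13 were called, and of the relatives and partners 2 of 17, Ndrg2 and Sesn2. The genes in this paragraph were named after their values were seen. Replicate 1 is also the library in which these genes were nearest to the controls, so the fit without it is no independent test. Without it the difference of Car9 was 2.22 and that of Egln3 1.42, against 1.59 and 1.0 with all libraries.

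Glycolysis genes and targets of ATF4, a transcription factor of the amino acid and endoplasmic reticulum stress response, were mostly highest in the same pair of libraries, and 0 of either list passed after adjustment. Of 21 glycolysis genes, 19 had a positive difference and the median was 0.33, against 44.2% and -0.02 over all genes tested. Replicates 2 and 3 were above the other 4 libraries in 18, against 15.0% of genes tested. The glucose transporter gene Slc2a1 had a difference of 0.62 and Aldoc, an aldolase, one of 0.83 (adjusted p = 0.312 from limma for both). The ATF4 list holds 14 genes, with Atf4 itself among them and with Vldlr and Sesn2 that are also listed above. Replicates 2 and 3 were highest in all 14, against the same 15.0%, and the median difference was 0.69. Trib3 and Ddit3 had differences of 1.89 and 1.71 (adjusted p = 0.312 for both). Control replicate 3 was higher than the other controls for the ATF4 list, with a median of 0.25 relative to the control mean, but was at 0.03 for the 10 hypoxia genes. The part of either response in the values of the 10 genes was not tested.

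**Figure D4:**
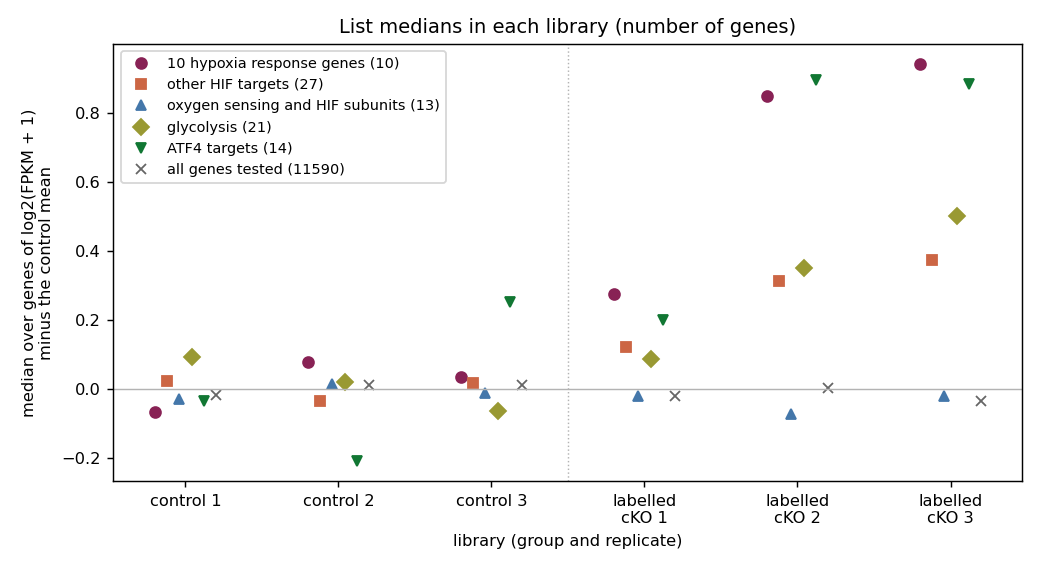
Median over the tested genes of each list of log2(FPKM + 1) minus the control mean of the gene (vertical axis) in each of the 6 libraries (horizontal axis), 1 symbol per list. For the 10 hypoxia response genes the median is 0.27, 0.85 and 0.94 in replicates 1, 2 and 3 labelled cKO, whereas oxygen sensing genes and all genes tested lie near 0 in every library.

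Other features of the libraries were set beside this pattern. The 4 Y-linked genes Ddx3y, Eif2s3y, Kdm5d and Uty were expressed in control replicate 3 and in replicates 1 and 3 labelled cKO, with a summed FPKM of 54.7, 52.8 and 49.6, and were at most 0.29 in sum in the others. With the Y-linked level as a covariate, the median difference of the other HIF targets was 0.26. The part of the sex of the cultures in the hypoxia values was otherwise not tested. Of 6 epithelial markers, 3 passed the filter, of which Epcam did so through the libraries labelled cKO alone and is not counted. The other 2, Krt8 and Krt18, were higher at an unadjusted p-value under 0.05, against 5.37% of genes tested. The summed FPKM of the 6 was 0.46, 3.61 and 13.4 in the controls and 42.7, 36.9 and 18.2 in the libraries labelled cKO, and Krt18, the most abundant, was highest in replicate 1 at 21.91. Krt5 and Krt14, which did not pass the filter, were lowest in replicate 1 among the libraries labelled cKO. The part of the epithelial markers in the hypoxia values was not tested.

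Of 10 osteoblast lineage markers, 7 had a negative and 3 a positive difference, where 44.2% of all genes tested had a positive one. In 4 of the 10, among them Ibsp, the libraries labelled cKO were all below the controls, against 11.8% of genes tested. They were all above the controls in 1 of the 10, Postn, against 6.51% of genes tested. Postn was at 599.74, 658.84 and 715.92 FPKM in the controls and at 1055.17, 742.46 and 950.76 in the libraries labelled cKO. Ibsp, a bone matrix protein, was at 123.86, 61.9 and 48.79 FPKM in the controls and at 34.64, 26.17 and 27.65 in the libraries labelled cKO, and so was low also in replicate 1. In RNA from whole cultures, fewer cells of a type and less RNA per cell cannot be told apart. Of 8 macrophage markers 6 were tested and 0 passed even at an unadjusted p-value under 0.05, with Lyz2 the most abundant at 26.61 to 74.99 FPKM. The same held for the 5 tested of 7 muscle markers, led by Acta1, and the 2 tested of 8 endothelial markers, led by Egfl7, which was 5.88 to 7.03 FPKM. Of 6 cartilage markers 5 were tested and all 5 were higher, 3 at an unadjusted p-value under 0.05, against 44.2% and 5.37% of genes tested, with the most abundant, Col2a1, at 63.59 to 127.69 FPKM, and the summed FPKM of the 6 was 155, 168 and 99.2 in the controls and 154, 179 and 174 in the libraries labelled cKO. Of the erythroid markers, Hba-a1 was listed at 0 in all libraries but the one labelled cKO replicate 3, at 0.2 FPKM. The part of the cartilage markers in the hypoxia values was not tested.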

How the data were processed

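RNA-seq of 6 libraries was analysed, 3 control and 3 labelled cKO, grouped by the sample titles. The authors mapped 150 bp paired-end reads of poly(A) RNA to the mouse transcriptome with HISAT2 (GRCm38, from the submitters' processing notes). The deposited unit is FPKM, given for each symbol to 2 decimals. DESeq is named for normalization, and its bearing on these FPKM values is not stated. The program behind FPKM, its version and the annotation are not given in the sources used here.

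FPKM holds no read counts, so no count model was fitted. On the log2(FPKM + 1) scale, the 11590 of 17001 rows that reached 1 FPKM in 3 or more libraries were compared with limma 3.58.1 (R 4.3.3, lmFit, eBayes, Benjamini-Hochberg adjustment over all of them). The test was checked on simulated data with independent libraries and an equal shift in all 3 labelled cKO. That check does not cover a library apart from its group, as replicate 1 labelled cKO was for most of the hypoxia genes. A difference is labelled cKO minus control. Depth is unknown, and 25 rows show a date where the symbol should be and are not named. Ero1a was matched through its synonym Ero1l.

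The 10 genes, the gene lists and the tests were chosen with earlier results of these data known. Named are Nell2, the 10 genes, the 5 largest differences in size of each pathway list, the 2 largest for glycolysis and ATF4, the most abundant gene of each marker list, Epas1, Epo, Flt1 and Kdr, and the 5 genes closest in pattern. Runx2, Postn, Ibsp, Sp7, Alpl, Bglap, Tfrc, Wsb1, Krt5, Krt8, Krt14, Epcam, Atf4, Vegfc, Nrp2, Ndrg4, the Y-linked genes and the genes called without replicate 1 were chosen after their values were seen. The alternatives were the pseudocount, filter, scaling, variance trend, replicate block, Y-linked covariate and each library left out.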

Additional observations from a re-analysis of the deposited data

How the results depend on the processing

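Of the 14 alternatives run, 4 (both filters, the variance trend and the replicate block) cannot move a fitted difference. In the other 10 no difference of the 10 hypoxia genes, which were chosen on this contrast, changed sign, but their sizes moved. With a library left out, Hif1a ran from 0.13 to 0.29 and Adm from -0.33 to -0.12. For example, Ndrg1 ran from 0.73 to 1.40, Egln3 from 0.78 to 1.42 and Car9 from 1.27 to 2.22. Of these fits, the one without the library labelled cKO replicate 1 gave the largest difference in each of the 8 genes that shared the main pattern. That of Ankrd37 rose from 0.71 to 1.16 with a pseudocount of 0.1. The number of genes called was 0 in every alternative with all 6 libraries (1219 to 1996 at an unadjusted p-value under 0.05), the replicate block included, where it was 0. It ran from 0 to 324 with a library left out, with 324 without the library labelled cKO replicate 1 and 2 without control replicate 3. Among the libraries labelled cKO, replicate 1 was the nearest to the controls in the 8 hypoxia genes that shared the main pattern. The median difference of oxygen sensing genes was -0.06, ran from -0.0882 without control replicate 1 to -0.0127 without control replicate 2, and was -0.0835 without control replicate 3. That of the relatives and partners was 0.16, and 0.09 and 0.29 without control replicate 1 and without the library labelled cKO replicate 1. The cause of these shifts was not tested. That of other HIF targets was between 0.24 and 0.34 throughout. Same-numbered libraries correlated at 0.03, -0.17 and 0.21 in their deviations from the group means, so the numbers were not taken to pair them, and the block changed no call. FPKM hides depth, which limits what can be said of genes as low as Ankrd37.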

Other observations

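The tested genes outside all lists whose values followed the mean of the 10 hypoxia genes most closely over the 6 libraries were Atf7, Arhgef2, Acot2, Lonp1 and Nxph4, with Pearson coefficients of 0.999, 0.996, 0.996, 0.994 and 0.994. These are a description over 6 libraries, of which 2 lay apart from the rest. The mean is not a profile of all 10 genes. Hif1a and Adm correlated with the mean of the other hypoxia genes at 0.23 and -0.72, and each remaining gene at 0.959 or more. Values were centred and not scaled, so genes with a large spread weigh most in the mean. Lonp1, a protease of the mitochondrial matrix, was at 24.34, 27.41 and 27.93 FPKM in the controls and at 29.33, 42 and 43.37 in the libraries labelled cKO. Acot2, a mitochondrial acyl-CoA thioesterase, was at 4.11, 4.2 and 4.74 against 5.74, 12.8 and 13 FPKM. Nxph4, a neurexophilin, was at 2.64, 2.81 and 2.71 against 3.33, 8.7 and 8.9 FPKM. Arhgef2, an exchange factor for RhoA, was at 24.26, 26.06 and 25.39 against 29.91, 40.11 and 41.61 FPKM. Atf7, a transcription factor, followed most closely although its range was narrow, from 9.27 to 11.16 FPKM.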
